A study of Capra hircus with 2 samples.

Results

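The goat endometrium yielded 79 predicted miRNA candidates of 20 to 26 nt, which are described here by hairpin arm, hairpin length, abundance and difference between 2 libraries. A candidate is a sequenced small RNA that was predicted to come from a hairpin and carries no known miRNA name. The candidates were chosen by their normalised expression (NE), the deposited signal, which had to reach 2.5 in at least 1 library. The 79 were selected from 621 candidate names, among 1208 names listed in all, and each repeated name was counted once. Because NE chose them, their levels and ratios are a description and support nothing further.

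Endometrium came from Xinong Saanen dairy goats aged 24 months, killed under a barbiturate. The pre-receptive group (P) was taken on day 5 of gestation and the receptive group (R) on day 15, with 10 goats per day. For each phase RNA of most of these goats was mixed into pools that were sequenced in repeated runs, but the tables give 1 merged library per phase, so there were no replicates and the spread between goats is unknown. The library labels of the candidate table are exchanged: of 70 candidate names shared with the table of differential expression, 70 had equal values within 0.01 NE when the labels were exchanged and 0 as written. One read was worth 0.860 NE in R and 1.16 NE in P, although R had fewer clean reads, so the deposited NE is not reads over clean reads as the formula of the methods has it. Scaling to clean reads, given below as an alternative, follows that formula. Reads were recovered by dividing by that worth and adding up the precursors of a name. The 79 candidates held 6810.5 reads in R and 3254 in P. These were 83.9% (exact binomial interval 83.1 to 84.7) and 87.5% (86.4 to 88.6) of all candidate reads, and 0.356% and 0.0803% of all reads listed. Reads listed were summed over names, so a sequence under more than 1 known name was counted each time. The abundant oar-miR-10a_R+1_1ss12TA and oar-miR-10b_L+1R-1 share their sequence in this way. PCR reads are not independent molecules, so all intervals and limits given here cover counting error only.

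A miRNA is cut from a hairpin whose arms can each leave a mature strand, named 5p or 3p. The bases near the 5′ end of that strand, the seed, pair with messenger RNAs and largely decide which of them are repressed. In the endometrium, miRNAs are known to act on genes of implantation, and cattle and other ruminants carry a large family, miR-2284 and miR-2285, with many copies.

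The sequences below are the most abundant candidates and those with the largest folds between the libraries after a library under 3 reads is set to 3 reads, on which the values turn; capitals mark the seed (bases 2 to 8).
PC-5p-2673_284: aCAGGATTgacagattgatagct
PC-5p-335_2818: tAGCAGCAcagaaatgttggta
PC-3p-26002_37: gTGGAACAcgatgaactgaac
PC-5p-20799_45: gAGGGTTTgggtttggtcgtggga
PC-3p-16127_59: aAGGAAAAtgttcttatttt
PC-3p-25064_36: tGACTTCCccctgtccactcagt
PC-3p-36269_24: cGCCCCACcccgctgcgggc
PC-5p-66825_11: tCTTGGGCctgcaagtcttgga
PC-5p-69112_10: tAAGTTCAttcggagttgtcc
PC-5p-104298_5: aAAAAGTTcagttggattcatc
PC-3p-61234_13: aAAATCTGaatgaactttttgga
PC-5p-72586_9: cCAGGAGTgtctttggattgtc

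The next set pairs candidates with the listed known miRNA they match, to show where a predicted name and a known name share letters, and adds oar-miR-16b_R+2, which has the seed of PC-5p-335_2818 but is not its nearest match; capitals again mark the seed.
PC-5p-335_2818: tAGCAGCAcagaaatgttggta
hsa-miR-195-5p_R-1_1ss16AG: tAGCAGCAcagaaatgttgg
oar-miR-16b_R+2: tAGCAGCAcgtaaatattggag
PC-5p-21385_42: gAAAGGTTcatttgggtttttt
PC-5p-32617_26: tGAAAGGTtcatttgggttttt
bta-mir-2285m-3-p5_1ss1AG: gAAAGGTTcatttgggttttt
PC-5p-31071_29: tGCGGGATctttagttgtggcga
bta-miR-3432_1ss21TC: tGCGGGATctttagttgtggcg
PC-3p-59746_12: aAAACTTGaatgaactttctgg
PC-3p-144933_3: aAACTTGAatgaactttctgg
bta-miR-2285f: aAAACCTGaatgaactttttgg
PC-3p-270044_3: gTTCGAGCcccacgttgggcgcca
ssc-mir-4335-p3_1ss4CG: tTCGAGCCccacgttgggcgcca

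Abundance was concentrated in 2 candidates. PC-5p-2673_284 had 3335 NE in R and 1147 NE in P, from 3879 and 986 reads. It held 57.0% of the candidates' reads in R and 30.3% in P, and as background its letters also occur in the 18S ribosomal RNA of animals, which was not compared here. PC-5p-335_2818 had 1832 NE in R and 2087 NE in P, or 31.3% and 55.2% of the reads. PC-3p-26002_37 came next with 122 NE in R and 107 NE in P, and the other 76 candidates stayed under 100 NE. In all, 21 candidates reached 10 NE, 40 stayed under 5 NE, and 47 had at most 10 reads in both libraries together. The median larger NE was 4.30, against 52.9 for the 425 known miRNAs over the limit.

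The summed level was 5811 NE in R and 3719 NE in P, a log2 ratio of 0.64 (0.58 to 0.70). Without PC-5p-2673_284 the sums were 2476 and 2572 NE, a log2 ratio of -0.06 whose interval (-0.14 to 0.03) holds 0 and which turns to 0.73 and 1.46 when reads are scaled to clean reads or to listed reads. Without both of the most abundant candidates the sums were 644 and 485 NE, a log2 ratio of 0.41 (0.23 to 0.59).

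**Figure D1:**
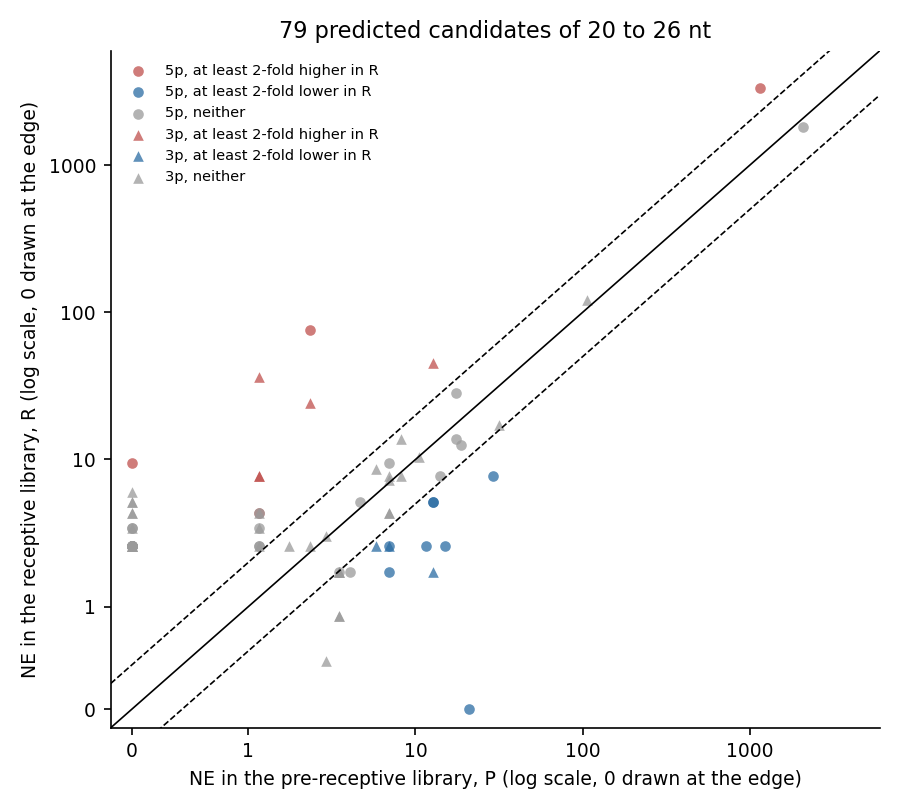
Each point is 1 of the 79 candidates, with NE in the P library on the horizontal and in the R library on the vertical log axis, by arm (circles 5p, triangles 3p); the solid line marks equal NE and the dashed lines 2-fold. Both of the most abundant candidates are from the 5p arm. At 0 NE in P lie 25 candidates (31.6%), against 1 (1.27%) at 0 NE in R. Of the candidates under the limit 55.9% and 31.4% do so, and of those of 18 to 19 nt 32.3% and 3.23%. The shares are 3.29% and 2.59% for the known miRNAs over the limit.

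Of the 79 candidates, 53 were above 0 NE in both libraries, 25 in R alone (31.6%) and 1 in P alone (1.27%). The shares in R alone and P alone were 55.9% and 31.4% under the limit and 32.3% and 3.23% at 18 to 19 nt. They were 3.29% and 2.59% of the known miRNAs over the limit. The limit was reached in both libraries by 28 candidates, in R alone by 40 and in P alone by 11. This limit chose the candidates, so no lean to either library is read from these counts. A read in P is worth more NE than a read in R, but for a name with 1 precursor 3 reads pass the limit in either library, since 3 reads equal 2.58 NE in R and 3.49 NE in P. Many of those above 0 in R alone rest on few reads, for 16 candidates had 3 reads in R and 0 in P. At the limit itself, 21 candidates stood just inside at 2.58 NE, among them PC-3p-78991_9, PC-3p-271604_2 and PC-5p-176266_3. Just outside, 36 candidates stood at 2.33 NE, among them PC-3p-1257529_1, PC-3p-971228_1 and PC-5p-539313_2.

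A candidate was called when its reads, summed over its precursors and weighted by their worth in NE, differed by at least 2-fold after a library under 3 reads was set to 3 reads. By this rule 9 candidates were higher in R and 11 were lower, while over all names of at least 2.5 NE the same rule called 19.1% higher and 14.8% lower, and over all names listed 8.44% and 6.54%. The candidates were selected on these values, so nothing is read from that difference. The split was 21 higher and 5 lower with reads scaled to clean reads, 62 higher and 2 lower with reads scaled to listed reads, and 9 and 11 with the median of the known miRNAs set to 0. These scalings shift every log2 ratio by 0.78, 1.52 and -0.09. With the listed reads 1 R read counts as 2.12 P reads, so the floor sets every candidate with at most 3 reads in both libraries to 2.12-fold, whatever its reads. These are 27 of the 62, of which 7 are under 2-fold and 3 are lower in R without the floor, and 35 higher candidates are left without the 27. The 27 calls rest on 2.12 being over 2. That value was not recalculated with each distinct known sequence counted once.

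Among the higher candidates, PC-5p-20799_45 had 75.7 NE in R and 2.33 NE in P, from 88 and 2 reads, a log2 ratio of 5.02 (3.13 to 8.09). PC-3p-25064_36 had 36.1 NE in R and 1.16 NE in P, a log2 ratio of 4.96 (2.40 to 10.3). PC-3p-36269_24, made mostly of G and C, had 24.1 NE in R and 2.33 NE in P, a log2 ratio of 3.37 (1.38 to 6.49). These 3 had at least 28 reads in R and at most 2 in P. PC-3p-16127_59 had 45.6 NE in R and 12.8 NE in P, a log2 ratio of 1.83 (0.88 to 2.92). PC-5p-2673_284 had a log2 ratio of 1.54 (1.44 to 1.64), the narrowest interval of the 9. The other 4 higher candidates, PC-5p-203577_2, PC-3p-82208_8, PC-5p-117279_6 and PC-3p-215602_2, are named after their values were seen. PC-5p-117279_6 had 9.46 NE in R and 0 NE in P, at least 2.71-fold higher against a floor of 3 reads, which leaves out counting error, and the exact interval of its log2 ratio starts at 0.89. PC-3p-215602_2 and PC-3p-82208_8 had 7.74 NE in R and 1.16 NE in P, a log2 ratio of 2.73 with an interval that holds 0 (-0.12 to 8.19). PC-5p-203577_2 had 4.30 NE in R and 1.16 NE in P, and its interval (-0.34 to 5.12) holds 0 too. It was called on 10 and 2 reads summed over 2 precursors, and by its NE as listed it would not be called. All 9 are called under the 4 scalings, of which clean and listed reads can only raise a ratio of R to P. Of the 9, 4 are from the 5p arm.

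Among the lower candidates, PC-5p-66825_11 had 0 NE in R and 20.9 NE in P, at least 8.11-fold lower against the floor, and the exact interval of its log2 ratio ends at -2.57. PC-5p-104298_5 had 2.58 NE in R and 15.1 NE in P, a log2 ratio of -2.55 (-5.00 to -0.69). These 2 were the lower candidates that stayed called under the 4 scalings by the floor rule. With clean or listed reads the interval of PC-5p-104298_5 holds 0, and that of PC-5p-66825_11 stays below 0. PC-3p-61234_13 had 1.72 NE in R and 12.8 NE in P, a log2 ratio of -2.90 (-6.11 to -0.70). PC-5p-72586_9 had 2.58 NE in R and 11.6 NE in P, a log2 ratio of -2.17 (-4.67 to -0.22). PC-5p-69112_10 had 7.74 NE in R and 29.1 NE in P, a log2 ratio of -1.91 (-3.19 to -0.76), and like the previous pair it stayed called with clean reads but not with listed reads. The remaining 6 lower candidates, PC-5p-196062_4 and PC-5p-32617_26 among them, lie on the other side of 0 with the listed reads by the floor rule, and 5 of them without the floor. On NE the exact intervals of 5 of these 6 hold 0, PC-5p-32617_26 being the exception. Its 12 and 22 reads were summed over 2 precursors. PC-5p-196062_4, with the same NE from 6 and 11 reads, has an interval that holds 0. In all, 8 of the 11 lower candidates are from the 5p arm.

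On NE, none of the other candidates with at least 10 NE passed 2-fold, and every interval but that of PC-5p-335_2818 held 0. With clean reads PC-5p-20958_45 and PC-3p-65381_11 were called higher, at log2 ratios of 1.48 and 1.54. With listed reads both were called too, as were PC-5p-335_2818, PC-3p-26002_37, PC-5p-31071_29 and PC-3p-42375_19. PC-5p-335_2818 had a log2 ratio of -0.19 (-0.28 to -0.10), which turns to 0.59 with clean reads and 1.33 with listed reads. PC-3p-26002_37 had a log2 ratio of 0.19 (-0.20 to 0.59). PC-3p-76502_8 had 17.2 NE in R and 31.4 NE in P. These 3 differed by less than 2-fold on NE. PC-5p-20958_45 had 28.4 and 17.4 NE, PC-3p-65381_11 had 13.8 and 8.14 NE, and PC-3p-42375_19 had 10.3 and 10.5 NE in R and P. PC-5p-21767_42 had 12.5 and 18.6 NE, and PC-5p-31071_29 had 13.8 and 17.4 NE. On NE the exact interval over the 79 lay above 0 for 7 candidates, below 0 for 7 and held 0 for 65. Clean reads raise every interval by 0.78, after which only PC-5p-66825_11 lies below 0 and more lie above it. Among the 79, 27 had at most 3 reads in both libraries, for which no fold is given.

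**Figure D2:**
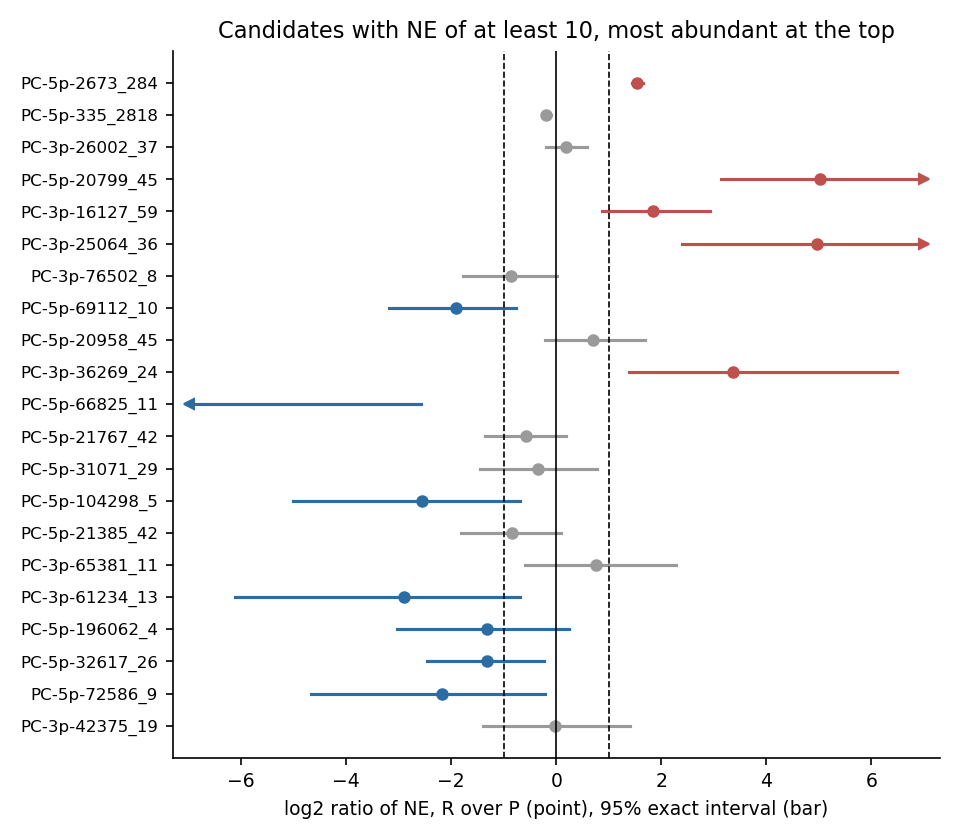
Points give the log2 ratio of NE, R over P, for the 21 candidates of at least 10 NE and bars its 95% exact interval, coloured red for at least 2-fold higher, blue for at least 2-fold lower and grey for neither, with arrows where an interval runs past the axis. PC-5p-2673_284 and PC-5p-335_2818 have narrow intervals, and the direction of PC-5p-335_2818, PC-5p-21767_42, PC-5p-31071_29 and PC-3p-42375_19 turns with clean and with listed reads, that of PC-3p-76502_8, PC-5p-21385_42, PC-5p-196062_4 and PC-5p-32617_26 with listed reads.

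Known miRNAs of cell types in the endometrium were read beside these differences, since in bulk tissue fewer cells of a type and less RNA per cell cannot be told apart. Of 8 epithelial miRNAs 7 had an entry, miR-200b being the other, with 34929 NE in R and 6747 NE in P and hsa-miR-141-3p_R-1 the most abundant. Of 6 muscle miRNAs 5 had an entry, miR-206 being the other, with 292641 NE in R and 1883320 NE in P and aja-miR-143_1ss22GT the most abundant. That entry alone had 289634 NE in R and 1866270 NE in P, so the muscle sum is nearly all 1 entry. The epithelial list was higher and the muscle list lower in R under the 4 scalings. The 5 blood miRNAs all had an entry, with 12220 NE in R and 12134 NE in P, a log2 ratio of 0.01 that becomes 0.79 with clean reads, 1.53 with listed reads and -0.08 with the median of the known miRNAs set to 0. The most abundant of them, cgr-miR-486-5p, had 5052 NE in R and 8073 NE in P, so the sum joins miRNAs that differ in both directions on NE. The endothelial miR-126 summed to 32841 NE in R, above 21288 NE in P. The part of these cell types in the differences between the candidates was not tested.

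The 5p arm gave 38 of the 79 candidates, or 48.1% (36.7 to 59.6), and the 3p arm 41. Of the 363 candidates of the same length under the limit 45.7% (40.5 to 51.0) came from the 5p arm, as did 71.0% (52.0 to 85.8) of 31 candidates of 18 to 19 nt over the limit and 46.0% (39.9 to 52.1) of 272 known miRNAs whose name gives an arm. Neither arm prevailed among the 79. Their interval overlaps the others, which does not show that the shares are alike. The share at 18 to 19 nt lay furthest from that of the 79, and no test compared them. Of the candidates with at least 10 NE, 13 of 21 were 5p, or 61.9% (38.4 to 81.9). By arm, hairpin length and place in the table, no hairpin was found with both arms among the 79. By the same features 5 candidates had a possible partner under the limit, and for 3 of them at least 2 in 3 facing bases paired. PC-5p-69112_10 had PC-3p-1257529_1 on a hairpin of 84 nt, with 16 of 19 facing bases paired. PC-3p-104784_5, with 13 of 18 paired, was another possible partner on a hairpin of the same length, and the values do not decide between them. PC-5p-104298_5 had PC-3p-971228_1 on a hairpin of 105 nt, with 15 of 21 paired. PC-3p-266344_2 had PC-5p-1096425_2 on a hairpin of 93 nt, with 18 of 18 paired. The sequences are shown to let the facing strands of these possible pairs be compared; capitals mark the seed.
PC-3p-1257529_1: aAAACTCTgaatgaactttatga
PC-3p-971228_1: gAAAATCCgaacgaacttttttg
PC-3p-266344_2: tGGTTTCAggacagatctct
PC-5p-1096425_2: aGATCTGTcctgaaaccagcatt
The precursor sequences were not analysed here, so the partners are matches by these features alone. A pair that is not neighbouring in the table or has unequal hairpin lengths would be missed.

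The median predicted hairpin was 85 nt long (exact interval of the median 81 to 89), with the shortest at 50 nt. It was 85 nt for the candidates under the limit and 81 nt for those of 18 to 19 nt, and among the 79 it was 82 nt for 5p and 88 nt for 3p. The hairpins of 80 to 89 nt were the most frequent, with 24 candidates. By the median over the precursors of a name, the longest belonged to PC-3p-270044_3, followed by PC-3p-800317_1 (140 nt) and PC-3p-131071_4 (135 nt), all 3p and all under 6 NE. The shortest belonged to PC-5p-72586_9 and PC-3p-1275038_1 (50 nt), and to PC-5p-335_2818 and PC-5p-171973_3 (57 nt). The abundant PC-5p-335_2818 thus sits in 1 of the shortest hairpins. Among the 79, 8 were listed for 2 precursors, and for PC-3p-78991_9 these measured 61 and 147 nt.

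**Figure D3:**
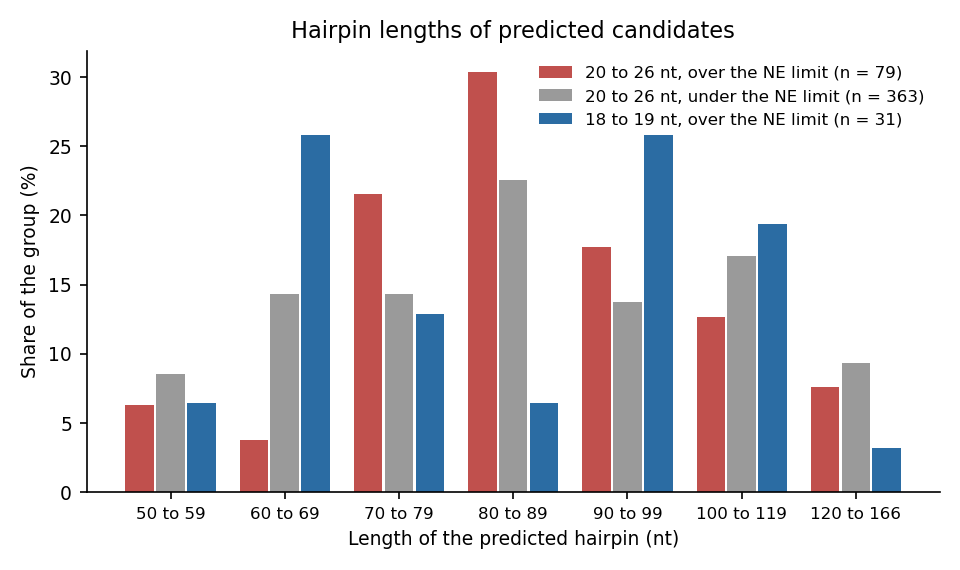
Bars give the share of each group whose predicted hairpin falls in a length class (nt), for the 79 candidates of 20 to 26 nt over the limit, 363 under it and 31 of 18 to 19 nt over it. The 79 peak at 80 to 89 nt, with 24 candidates, and 6 are of 120 nt or more.

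The sequences themselves were most often 22 nt long, in 34 of 79 or 43.0% (31.9 to 54.7), against 27.0% (22.5 to 31.9) under the limit and 41.4% (36.7 to 46.3) of the known miRNAs. They began with T in 34 of 79, again 43.0%, against 35.8% (30.9 to 41.0) under the limit, 16.1% (5.45 to 33.7) at 18 to 19 nt and 41.9% (37.1 to 46.7) of the known miRNAs. G came first in 17.7% (10.0 to 27.9) of the 79, against 17.4% (13.6 to 21.7) under the limit, 22.6% (9.59 to 41.1) at 18 to 19 nt and 6.82% (4.62 to 9.65) of the known miRNAs. The median GC content was 40.9%, against 43.5% under the limit, 57.9% at 18 to 19 nt and 45.5% for known miRNAs. It ran from 18.2% in PC-5p-177739_3 to 100% in PC-3p-259457_3, and 5 candidates had at least 70%, all from the 3p arm. PC-5p-177739_3 and PC-3p-259457_3 are named after their values were seen.

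**Figure D4:**
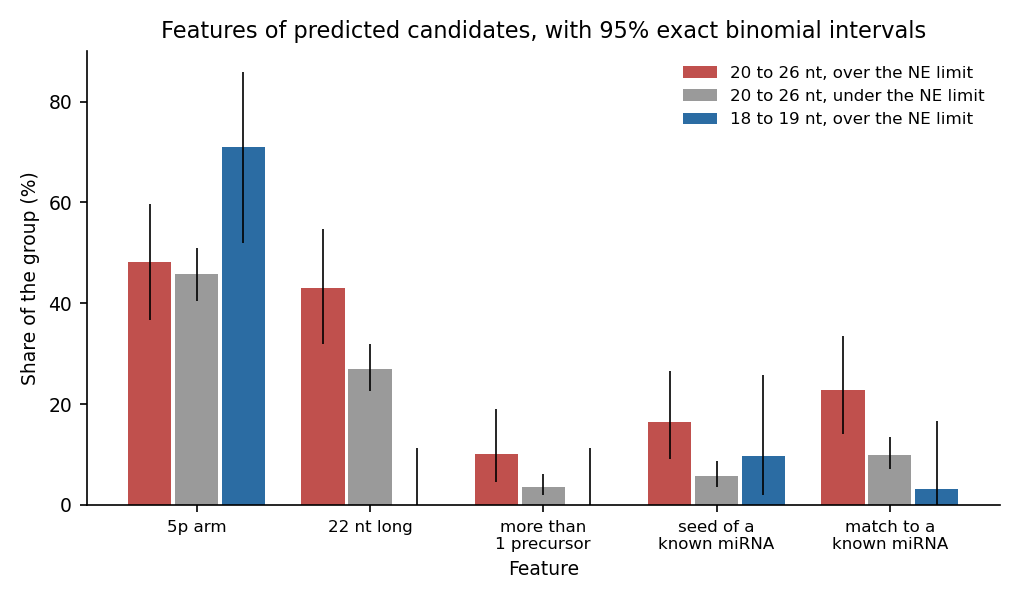
Bars give the share of each group with a feature and lines its 95% exact binomial interval, for the candidates of 20 to 26 nt over the NE limit, the candidates of that length under it and those of 18 to 19 nt over it. A match to a listed known sequence was found in 22.8% of the 79 and in 9.92% of those under the limit.

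Of the 79, 18 candidates matched a listed known sequence with at most 2 mismatches over at least 16 nt, which is 22.8% (14.1 to 33.6), against 9.92% (7.04 to 13.5) under the limit and 1 of 31 at 18 to 19 nt. Of these 18, 8 matched with 0 mismatches and 15 matched the cattle family miR-2284 and miR-2285. PC-5p-335_2818 begins with all 20 bases of hsa-miR-195-5p_R-1_1ss16AG, which had 24.9 NE in R and 44.2 NE in P. Thus the candidate was 73.4 times as abundant in R and 47.2 times in P as the known entry with the same first bases. Its seed is also that of oar-miR-16b_R+2, with 7323 and 7470 NE, of the miR-15/16 group known to hold back cell division. PC-5p-31071_29 holds all 22 bases of bta-miR-3432_1ss21TC, which had 50.7 NE in R and 38.4 NE in P. PC-3p-270044_3, with 5.16 NE in R and 0 NE in P, holds all 23 bases of ssc-mir-4335-p3_1ss4CG and ends in CCA, letters that as background also end transfer RNAs.

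The 15 candidates that matched the miR-2284 and miR-2285 family by this cut-off were 7 of the 5p and 8 of the 3p arm. They summed to 65.8 NE in R and 83.2 NE in P, an order that turns with clean reads and with listed reads, and 1 was higher and 3 lower in R by the 2-fold rule on NE. Their GC content lay between 26.1% and 40.9%, with a median of 31.8% against 47.9% for the other 64 candidates. No other cut-off was tried, and the other 64 may hold relatives of the family. Among them, PC-5p-104298_5, called lower in R, and PC-5p-82154_8 have the seed of bta-miR-2284x_L-1R+2 without passing the cut-off. Of the 8 candidates with 2 precursors, 7 are among these 15. PC-5p-21385_42 and PC-5p-32617_26 are the same run of bases shifted by 1, and both match bta-mir-2285m-3-p5_1ss1AG without a mismatch. PC-5p-21385_42 had 7.74 NE in R and 14.0 NE in P, PC-5p-32617_26 had 5.16 and 12.8 NE, and the known entry had 53.7 and 108 NE. All 3 were lower in R by NE and by clean reads but not by listed reads. PC-3p-144933_3 lies inside PC-3p-59746_12, which had 2.58 NE in R and 6.98 NE in P. In all, 12 of the 79 candidates resembled another of them, in 10 pairs, so the candidates that match the family are not independent of each other.

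The 79 candidates had 77 distinct seeds, and 13 candidates shared a seed with a known miRNA over the limit, which is 16.5% (9.06 to 26.5), against 5.79% (3.62 to 8.71) under the limit. The seed AAAAGTT occurred in PC-5p-104298_5, PC-5p-124937_4 and PC-5p-82154_8 and in the known bta-miR-2284x_L-1R+2 and bta-miR-2284ab. The first known entry had 25.8 NE in R and 66.9 NE in P, and the second was higher in R. Together they had 37.8 and 72.7 NE. PC-5p-124937_4 and PC-5p-82154_8 had 3.44 NE in R and 0 NE in P, and neither was called. PC-3p-131531_5, with 4.30 NE in R and 6.98 NE in P, has the seed of oar-miR-376c-3p_1ss6AG, which had 251 and 232 NE. PC-3p-247920_2 has the seed of oar-miR-376e-5p_L-1. PC-5p-335_2818, PC-5p-21385_42, PC-5p-31071_29 and PC-3p-61234_13 share the seed of the known miRNA that they match, and PC-3p-97344_6 has the seed of bta-miR-2285f_L+1R-1. The last 3 of the 13, PC-3p-159078_3, PC-5p-171050_3 and PC-5p-199454_2, are named after their values were seen and had 2.58 NE in R and 0 NE in P each. PC-5p-199454_2 has the seed of oar-miR-103_R-1, which had 2888 and 4627 NE.

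**Figure D5:**
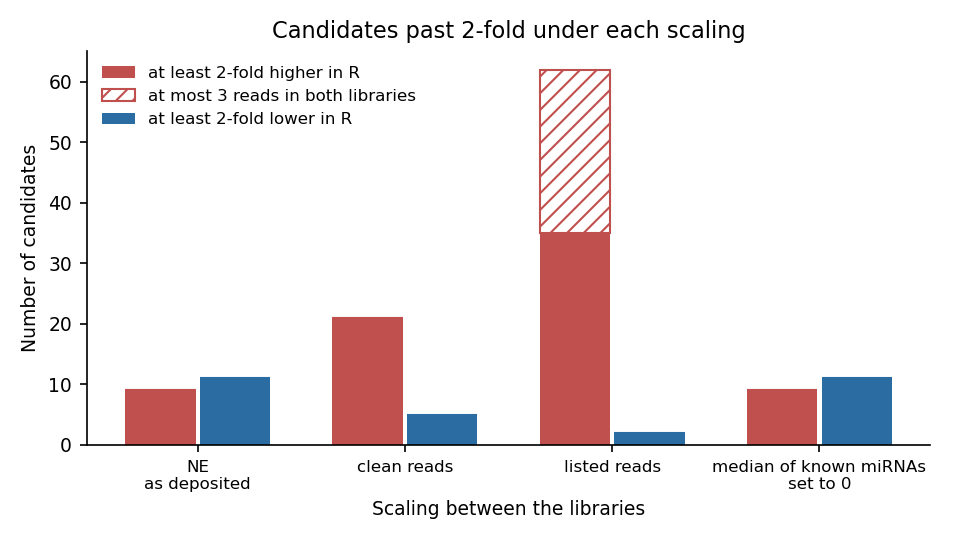
Bars count the candidates called higher (red) and lower (blue) in R under 4 scalings between the libraries. Hatching marks those with at most 3 reads in both libraries, for which the floor sets the ratio. The counts are 9 and 11 on NE, 21 and 5 with clean reads, 62 and 2 with listed reads, and 9 and 11 with the median of the known miRNAs set to 0. Of the 62, 27 are hatched, of which 7 are under 2-fold and 3 lower in R without the floor.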

How the data were processed

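Small RNA of goat endometrium was sequenced in 1 receptive and 1 pre-receptive library. The values deposited by the authors are a normalized signal (NE) for every name in either library. The authors' fold change, log2 and p-value columns of the table of differential expression hold their comparison of the libraries and were not used. The candidate table's labels were exchanged after a check on shared names. Reads were recovered as NE over the worth of 1 read, and ratios given 95% exact (Clopper-Pearson) intervals. The phases were not compared by a statistical test, since there is 1 library per phase. The code for intervals and calls was tested on simulated data. The members and lists were chosen with earlier results of these data known. Named were candidates of at least 10 NE, the 5 largest folds each way, shared seeds (at most 8 groups), both arms or contained sequences, the 3 longest and 3 shortest hairpins, and up to 3 names on each side of the limit. The alternatives were other scalings, limits, floors, labels, seeds and ways of counting. Python 3.11.15, numpy 2.4.6, scipy 1.17.1 and matplotlib 3.10.9 were used.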

Additional observations from a re-analysis of the deposited data

How the results depend on the processing

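Alternatives left 20 of 42 values in place, which for a count or a sum means within 1.5 times and for a share or a median means inside its interval. The number of candidates was 39 with a limit of 5 NE, 21 with 10 NE and 27 with 10 reads in a library. Candidates at least 2-fold higher and lower in R numbered 21 and 5 with clean reads, 62 and 2 with listed reads, 40 and 19 with no floor, 37 and 13 with a pseudocount of 1 NE, and 4 and 1 with the whole interval beyond 2-fold. With the labels as the candidate table has them they were 11 and 9. These count as in place by size alone, since every direction is then the opposite by construction. The arm is compared as a share, since a smaller set holds fewer of either arm: 5p gave 18 of 39 at a limit of 5 NE and 13 of 21, or 61.9%, at 10 NE. Without the most abundant candidate the sum in R was 2476 NE. Chosen after seeing the data were the values without the 2 most abundant (644 NE in R, 485 NE in P), those of candidates with at least 10 NE (5 higher, 7 lower), of those over 3 reads in a library (21 higher and 5 lower with clean reads, 35 and 2 with listed reads), of NE not summed over precursors (8 and 11), and those without candidates that match a known sequence (5p 29 of 61). Fewer candidates enter the stricter limits; the cause of the other shifts was not tested.

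With 1 library per phase the spread between goats is unknown, and 47 of 79 candidates have at most 10 reads in all, so most ratios cannot be told from 1 at this depth. No paired analysis was possible because each phase is 1 mixed library. Overlap with annotated goat miRNAs was not run, as no goat miRNA sequences or genome were used here. Candidates that match the same family share sequence.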

Other observations

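Predicted targets were listed for 10 of the 79 candidates, and the same table holds 22 candidates in all. The authors predicted targets only for miRNAs that they called different between the libraries. All 10 had more NE in R than in P, and no candidate called lower in R is among them. The counts below thus describe these 10 and not the 79. These 10 had between 458 identifiers (PC-3p-247920_2) and 1044 (PC-3p-215602_2), with a median of 797 against 578.5 over the table. PC-5p-2673_284 and PC-3p-25064_36 had 829 each. At least 1 of the 10 was given for 4172 of the 7608 identifiers, and 2157 of them for 1 candidate alone. At least 5 of the 10 were given for 160 identifiers, and 8 for 2. Between any 2 of the 10, a candidate shared 7.44% to 29.1% of its identifiers with the other. These are computed predictions, and no target was measured here.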
